A study of Mus musculus with 10 samples.

Results

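The genes of mitochondrial protein import and mitochondrial protein quality control were examined in interscapular brown adipose tissue (iBAT) of Axl KO and WT mice. Members were the protein-coding genes whose symbol begins with Tomm or Timm, together with Pam16, Dnajc15, Dnajc19, Grpel1, Hspa9, Hspd1, Hspe1, Lonp1, Clpp, Clpx, Afg3l2, Spg7, Pmpca and Pmpcb. Of 40 such genes, 38 had a mean above 1 CPM, the count of a gene scaled to the total of its library, and were kept, out of 13739 genes above that level and 41249 in the tables. The other 2, Tomm20l and Timm8a2, had 0 and 1 counts in all mice together. The rule reads symbols and the mean level, and no difference between genotypes.

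Whole iBAT was sequenced from 5 Axl KO and 5 WT mice, with 1 library per mouse. Per the labels, both groups were aged 6 to 8 weeks when a high fat diet (HFD) of 24 weeks began. The paper gives a longer feeding and an older start, and names the sequenced mice as males kept at room temperature. The Axl KO is a whole-body, constitutive knockout: a gene-trap cassette in Axl, a receptor tyrosine kinase, was introduced through 2 embryonic stem cell clones, whose chimeras were bred to C57Bl6 mice, and the methods give WT littermates as controls. Every cell type of the depot therefore carries the allele, in life and during development, and the libraries hold all cell types of the depot. Library totals were 5431014 to 8214841 counts in Axl KO and 5952427 to 9580215 in WT mice, and a member had between 32 and 16337 counts in a mouse, with a median of 561.5. Axl itself had 1.57 ± 0.646 normalized CPM in Axl KO and 43.1 ± 5.86 in WT mice (SD, n = 5 each), a log2 fold change of -4.77 ± 0.20 (SE; edgeR quasi-likelihood test, adjusted p = 1.096e-07).

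Most mitochondrial proteins are made in the cytosol and imported. The TOM complex of the outer membrane receives nearly all of them. Precursors with a cleavable presequence pass on to the TIM23 complex and are drawn into the matrix by a motor built around mortalin, a chaperone of the HSP70 family, whereas carrier proteins are escorted by small TIM chaperones to the TIM22 complex. In the matrix a processing peptidase removes the presequence, the HSP60 and HSP10 chaperonin folds the chain, and ATP-driven proteases degrade what is damaged. Brown adipocytes are rich in mitochondria, and UCP1, their uncoupling protein, is itself a carrier-type protein of the inner membrane.

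The start region shared by 2 members and the upstream region of 2 others are shown because Tomm5, Hspe1 and Timm8b had the smallest p-values among the members. All are from RefSeq on GRCm38.p6, with exons as annotated in GENCODE M21. RefSeq places the Timm8b start at position 50603901, so the last bases of the Timm8b stretch lie at or after that start. Hspe1 and Hspd1, the co-chaperonin HSP10 and the chaperonin HSP60, are neighbours on chromosome 1 transcribed away from each other. RefSeq places the Hspe1 start at position 55088148 on the plus strand and starts of Hspd1 at 55088243 and 55087932 on the minus strand, so that one Hspd1 start lies 95 bases downstream of the Hspe1 start and transcripts of both strands are annotated there. The stretch from 95 to 66 bases before the Hspe1 start holds 2 copies of TTCNNGAA, the core letters of a heat shock element, and the stretch from 59 to 30 bases before it holds AAGGTCA, a core read by estrogen-related receptors. Both stretches are given on the plus strand with the matched letters in capitals.
Hspe1 and Hspd1, heat shock element cores, chr1:55088053-55088082: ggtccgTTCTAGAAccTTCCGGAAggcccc
Hspe1 and Hspd1, receptor core, chr1:55088089-55088118: cccgtgggtgaAAGGTCAagtggcgtcatt
Timm8b, plus strand, 97 bases outside annotated exons, chr9:50603813-50603909: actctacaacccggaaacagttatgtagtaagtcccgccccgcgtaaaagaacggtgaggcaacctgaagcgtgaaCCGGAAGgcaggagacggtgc
Tomm5, minus strand, 249 bases outside annotated exons, chr4:45108115-45108363: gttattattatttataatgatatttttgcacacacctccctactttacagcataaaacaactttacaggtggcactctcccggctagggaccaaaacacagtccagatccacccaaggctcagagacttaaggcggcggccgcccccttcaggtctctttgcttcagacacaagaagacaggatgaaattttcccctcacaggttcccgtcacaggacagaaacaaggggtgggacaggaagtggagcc

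In the Timm8b stretch the capitals mark CCGGAAG, a core of ETS-family sites, and in the Tomm5 stretch none of the letters searched were found. The window of each gene, from 250 bases before to 50 after the start, was searched on both strands for 5 cores, and 33 of the 38 members had an entry. TTCNNGAA was in 9 of the 33 windows (27.3%) and in 8.38% of the 9855 tested genes with an entry. The 9 were Clpp, Hspd1, Hspe1, Timm10, Timm13, Timm9, Timmdc1, Tomm20 and Tomm22. CCGGAAG was in 15 members (45.5%) and in 20.2% of tested genes, and its letters can overlap those of TTCNNGAA. AAGGTCA was in 5 members (15.2%), namely Hspd1, Hspe1, Timm23, Timm44 and Timm8b, and in 3.91% of tested genes. Hspd1 and Hspe1 share a start region, so the same stretches were counted for both genes with TTCNNGAA, CCGGAAG and AAGGTCA. GCATGCGC, a core of NRF1 sites, was in 3 members (9.09%) and in 6.00% of tested genes, and TGACGTCA, the cyclic AMP response element, in 0 members and in 3.57%. Such matches are letters in a window and not measured binding.

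The members differed widely in transcript level. Levels were compared as normalized CPM per kilobase, with the mean length of a gene's annotated coding transcripts, over the 10 mice. Hspa9, which encodes the motor chaperone mortalin, stood highest with 564.2 ± 40.1 (SD, n = 10), followed by Hspd1 with 311 ± 23.2 and Pmpcb, the catalytic subunit of the processing peptidase, with 174.9 ± 12.2. Hspa9 alone made up 28.6% of the members' summed CPM in Axl KO and 28.7% in WT mice. Lowest were Timm8a1, a small TIM chaperone subunit, with 4.36 ± 0.963, the X-linked Timm17b, a TIM23 channel subunit, with 7.06 ± 0.605, and Tomm34, a cytosolic co-chaperone, with 8.36 ± 0.910. The highest level was 129.5 times the lowest. Of the 37 pairs of neighbours in this order, 6 had ranges over the 10 mice that did not overlap, so that most neighbours were not separated beyond the spread between mice. Scaled by all annotated exon bases instead, Hspa9, Hspd1 and Timm8a1 kept their ranks, and Pmpcb moved from rank 3 to rank 10.

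**Figure D1:**
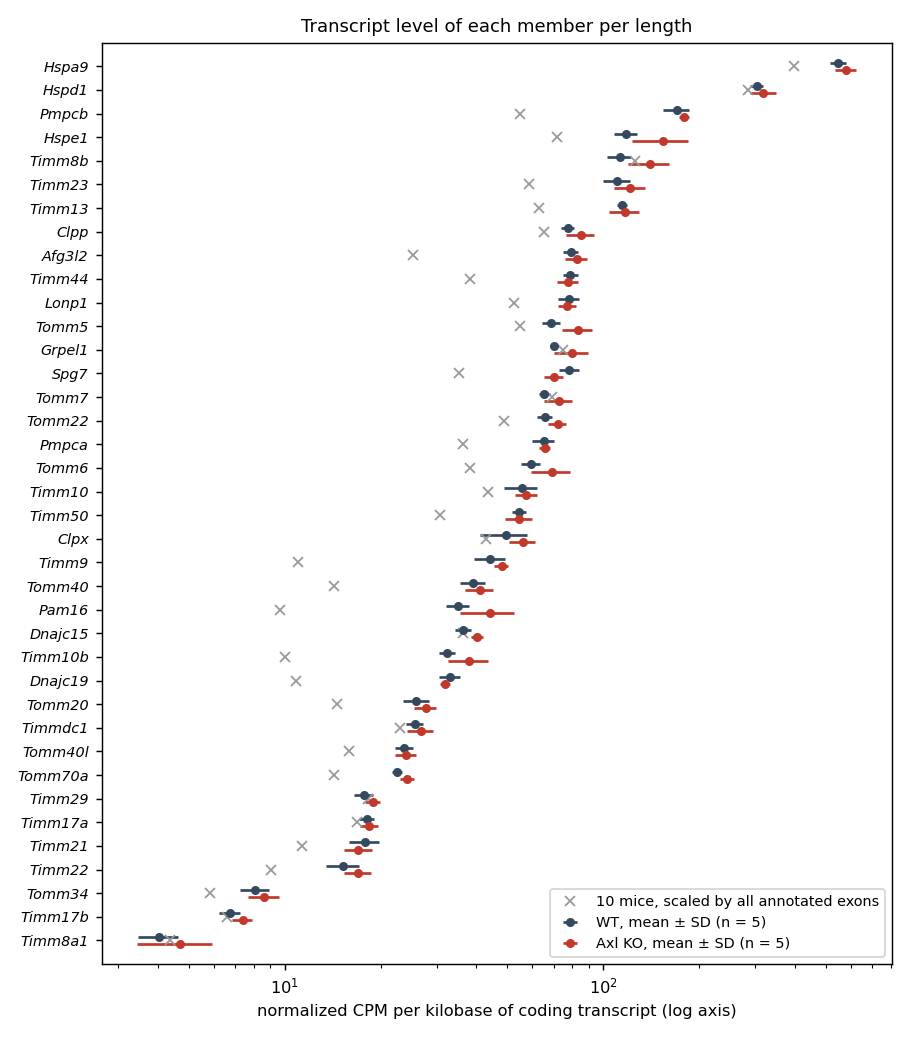
Each row is a member, ordered by its level; the log axis gives normalized CPM per kilobase of coding transcript. Points and bars are the mean and SD of 5 WT (blue-grey) and 5 Axl KO (red) mice, and crosses are the means of the 10 mice scaled by all annotated exons. Hspa9 and Hspd1 stand clear of all other members, and the genotypes lie close together beside the 129.5-fold span of levels.

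In some pairs of paralogs 1 gene predominated. Timm17a had a level of 18.3 ± 1.05 against 7.06 ± 0.605 for Timm17b, the other form of this subunit, a median ratio of 2.57 over the mice. Grpel1, the nucleotide exchange factor of mortalin, had 75.0 ± 8.28 against 7.45 ± 0.917 for its paralog Grpel2, a median ratio of 9.77. Timm8b had 126.4 ± 20.9 and Timm8a1 0.0335 times as much per mouse at the median. Timm13, the partner of TIMM8 proteins, had 115.9 ± 9.09, so that the Timm8a1 level was again a small share of it (median ratio 0.0346). The members of several pairs lay closer together. Tomm40, the channel of the outer membrane, had 40.0 ± 3.73 against 23.9 ± 1.59 for Tomm40l, and Afg3l2 had 80.9 ± 5.57 against 74.1 ± 6.50 for Spg7, its partner in the m-AAA protease. The order of these last 2 pairs turned with all annotated exons as the length (median ratios of 0.891 and 0.699), and Tomm40l shares 64.3% of its exon bases with Nr1i3 on the opposite strand. The order within Pmpca (65.2 ± 3.90) and Pmpcb, Clpp (81.4 ± 7.30) and Clpx (52.7 ± 7.40), Tomm20 (26.8 ± 2.37) and Tomm22 (68.8 ± 5.12), and Timm9 (46.1 ± 4.22) and Timm10 (56.5 ± 5.48) was the same with either length.

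Between genotypes, 0 of the 38 members passed an adjusted p of 0.05 (edgeR, quasi-likelihood), beside 0.00728% of the genes tested, which is Axl alone. All members had an adjusted p of 0.5714 or more. By the looser measure of an unadjusted p under 0.05, 10 of 38 members were counted, of which 9 were higher and 1 lower in Axl KO mice, beside 8.4% of all genes tested. The log2 fold change was above 0 for 32 of the 38 members (84.2%), against 49.8% of all genes, and its median was 0.10 for members and -0.00059 for all genes. The ranges of the genotypes overlapped for every member (0 of 38), whereas 1.35% of all genes had ranges without overlap. Without Axl KO replicate 3, 5 members and 774 of 13719 genes had ranges without overlap. In bulk tissue, more transcript per cell and more cells of a type cannot be told apart. The count of 10, beside 1154 of all genes, was 5 without Axl KO replicate 1 (817 of all genes), 4 without Axl KO replicate 5 (973), 5 without WT replicate 5 (925) and 12 without Axl KO replicate 3 (2027). With each of the 10 mice left out in turn, 30 to 35 members had a log2 fold change above 0. Over the 20 settings run, Hspe1, Pam16 and Timm8b had an unadjusted p under 0.05 in all, Tomm5 in 18, Dnajc15 and Timm10b in 16, Spg7 in 12, Grpel1 in 11, and Tomm6 and Tomm22 in 8.

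**Figure D2:**
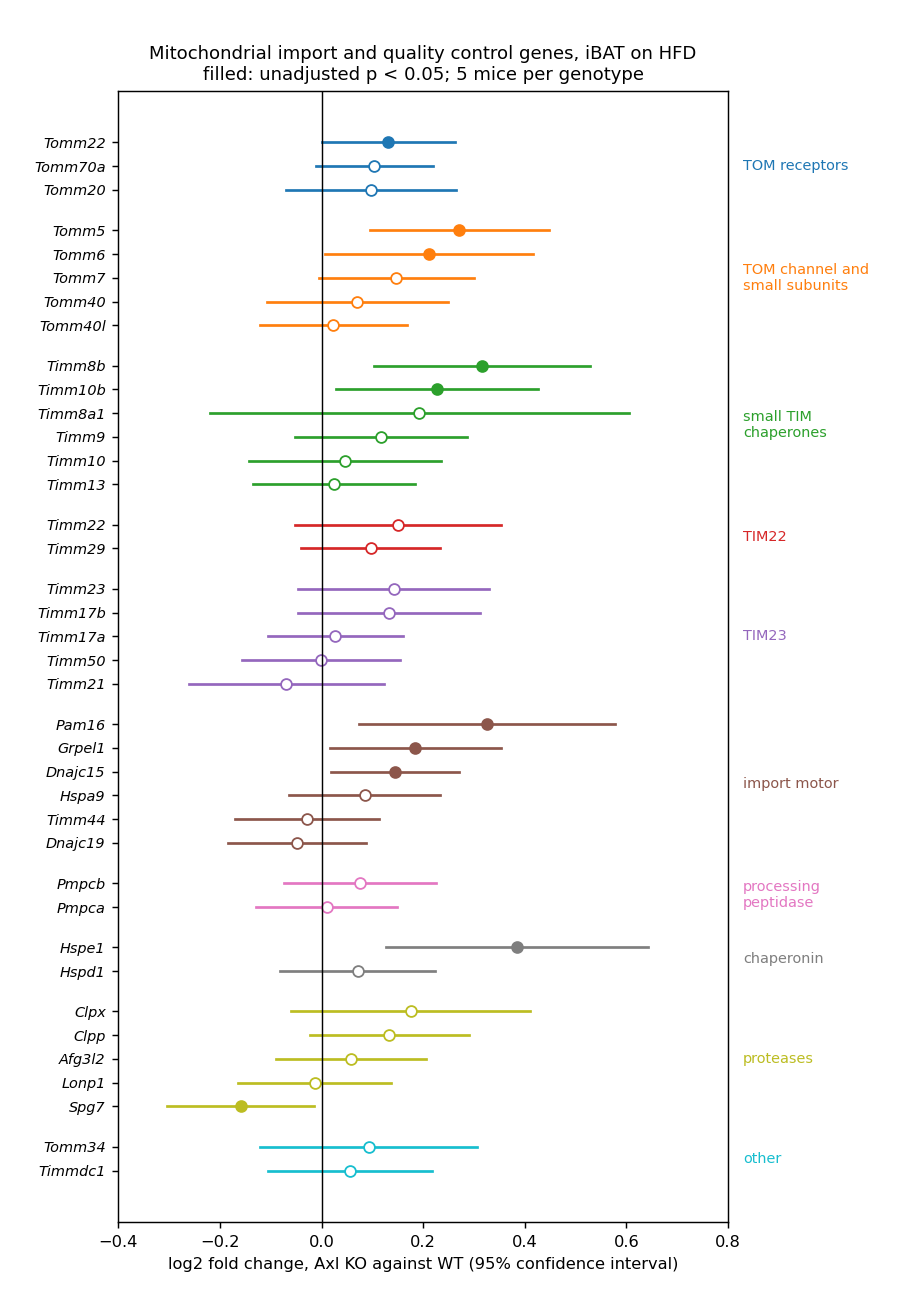
Each row is a member, grouped by role; points are log2 fold changes of Axl KO against WT (above 0: higher in Axl KO) and lines are 95% confidence intervals, with filled points for an unadjusted p under 0.05 (n = 5 per genotype). Points lie right of 0 for 32 of 38 members, most intervals cross 0, and Spg7 is the filled point left of it.

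The intervals bound how large the differences could be. The median SE of a member's log2 fold change was 0.07. The whole 95% interval lay within 0.2 of 0 on the log2 scale (1.15-fold) for 8 members, within 0.3 (1.23-fold) for 24 and within 0.5 (1.41-fold) for 34. Members varied less between mice than the median gene. Their median coefficient of variation was 7.0% in WT and 9.41% in Axl KO mice, against 11.3% and 13.3% for all genes tested. The genes tested include those down to a mean of 1 CPM, and no comparison with genes of like level was made. The variation was larger in Axl KO than in WT mice for 24 members, and for 63.1% of all genes.

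TOM receptors take up precursors at the mitochondrial surface. All 3 tested members were higher in Axl KO mice, by 0.10 to 0.13 on the log2 scale, and 1 had an unadjusted p under 0.05. Of all genes tested, 49.8% were higher and 8.4% had such a p. Tomm22, the central receptor and organizer of the complex, had 85.8, 80.7, 79.4, 84.0 and 93.3 normalized CPM in Axl KO mice and 76.3, 81.2, 80.2, 77.4 and 70.9 in WT mice. Of the Axl KO mice, replicates 1, 4 and 5 lay above all WT mice, and the groups overlapped. Tomm22 had a log2 fold change of 0.13 ± 0.06 (SE; edgeR adjusted p = 0.5942). Tomm70a, the receptor for carrier precursors, differed by 0.10 ± 0.05, and Tomm20, which recognizes presequences, by 0.10 ± 0.08.

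The channel and the small TOM subunits, which assemble around TOM40, were all higher as well (5 of 5, median 0.15), beside 49.8% of all genes. Tomm5 had 57.9, 57.0, 43.7, 50.2 and 51.2 normalized CPM in Axl KO mice and 42.9, 46.8, 43.7, 42.6 and 39.0 in WT mice. Only Axl KO replicate 3 lay within the WT range, and the other 4 lay above it. The log2 fold change of 0.27 ± 0.08 had the smallest p of the members in this fit (edgeR adjusted p = 0.5714). It was 0.17 with skeletal muscle markers as a covariate and 0.17 without Axl KO mice 1 and 2, where its unadjusted p was above 0.05 and Timm10b had the smallest p. Tomm6 had 47.8, 47.5, 36.3, 45.7 and 54.4 in Axl KO and 38.0, 41.3, 38.9, 44.0 and 37.5 in WT mice. Here 4 Axl KO mice lay above and replicate 3 below all WT mice, with a log2 fold change of 0.21 ± 0.09 (edgeR adjusted p = 0.5849). The Tomm6 count is uncertain, because 76.0% of its exon bases also belong to Gm21981, a gene on the same strand. Tomm7, a regulator of complex assembly, differed by 0.15 ± 0.07, whereas the channel itself differed less, Tomm40 by 0.07 ± 0.08 and Tomm40l by 0.02 ± 0.07.

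The small TIM chaperones carry hydrophobic precursors across the intermembrane space. All 6 tested genes had a log2 fold change above 0, with a median of 0.15, and 2 had an unadjusted p under 0.05. The shares over all genes tested were 49.8% and 8.4%. Timm8b had 79.2, 69.0, 59.5, 69.0 and 86.8 normalized CPM in Axl KO and 62.8, 56.8, 50.4, 62.6 and 59.0 in WT mice. All Axl KO mice except replicate 3 lay above the WT range. The difference was 0.32 ± 0.10 on the log2 scale (edgeR adjusted p = 0.5714), with 15.6% of the Timm8b exon bases shared with Nkapd1 on the opposite strand. Timm10b, also called TIM9B, which sits at the TIM22 complex, had 39.5, 31.6, 38.6, 36.7 and 47.1 in Axl KO and 31.8, 34.4, 33.5, 30.1 and 34.6 in WT mice. Here Axl KO replicate 2 was the mouse within the WT range, and the log2 fold change was 0.23 ± 0.09 (edgeR adjusted p = 0.5714), or 0.15 without Axl KO replicate 5. Its count is uncertain too, since 10.5% of its exon bases lie in Gm45799 on the same strand and 7.73% in Arfip2 on the other. Timm9 and Timm10, which form a hexamer together, differed by 0.12 ± 0.08 and 0.05 ± 0.09, Timm13 by 0.02 ± 0.07, and Timm8a1, the least abundant member, by 0.19 ± 0.19.

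The 2 translocases of the inner membrane showed no member with an unadjusted p under 0.05. Timm22, the carrier channel, had 33.8, 32.5, 26.5, 28.8 and 30.1 normalized CPM in Axl KO and 27.3, 32.6, 26.1, 26.1 and 23.9 in WT mice, with WT replicate 2 among the higher Axl KO mice. The log2 fold change was 0.15 ± 0.09 (edgeR adjusted p = 0.6638), but 0.05 with the muscle covariate, 0.06 without Axl KO mice 1 and 2 and 0.23 without WT replicate 2. Timm29, its partner, differed by 0.10 ± 0.06. Timm23, the presequence channel, had 109.6, 131.1, 99.4, 102.0 and 106.5 in Axl KO and 96.2, 107.5, 111.5, 89.6 and 92.0 in WT mice. Only Axl KO replicate 2 exceeded all WT mice, and the log2 fold change was 0.14 ± 0.09 (edgeR adjusted p = 0.6623). It was 0.07 without that mouse, 0.04 with the muscle covariate and 0.05 without Axl KO mice 1 and 2. The annotation places a snoRNA, Gm23946, inside Timm23 exons on the same strand, with 2709 counts of its own over the mice. Of the other TIM23 genes, Timm17b differed by 0.13 ± 0.08, Timm17a by 0.03 ± 0.06, the receptor subunit Timm50 by -0.00080 ± 0.07 and Timm21, which links TIM23 to the respiratory chain, by -0.07 ± 0.09. Timm50 is on chromosome 7, 2.52 Mb from Axl, and is the member nearest to the targeted gene.

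The import motor held 3 of the 10 genes counted above, among its 6 tested genes, beside 8.4% of all genes tested. Pam16, a J-like protein that restrains the motor, had 27.8, 24.1, 21.8, 23.3 and 34.3 normalized CPM in Axl KO and 18.8, 20, 21.6, 23.4 and 20.4 in WT mice. WT replicate 4 lay among the Axl KO mice and the other 4 WT mice below all of them. The difference was 0.33 ± 0.12 on the log2 scale (edgeR adjusted p = 0.5714), with 18.7% of the Pam16 exon bases shared with Glis2 on the opposite strand, and it was 0.22 without Axl KO replicate 5. Dnajc15, a J-protein of the motor, had 245.5, 239.4, 241.4, 252.0 and 267.0 in Axl KO and 231.5, 226.0, 210.9, 242.2 and 215.7 in WT mice. Again the overlap came from WT replicate 4, and the log2 fold change was 0.14 ± 0.06 (edgeR adjusted p = 0.5714). Grpel1 had 289.9, 260.6, 241.8, 283.7 and 331.4 in Axl KO and 238.6, 258.8, 244.2, 249.6 and 246.5 in WT mice. Of the Axl KO mice, 4 lay above all WT mice and replicate 3 within their range, and the log2 fold change was 0.18 ± 0.08 (edgeR adjusted p = 0.5714). Without Axl KO replicate 5 it was 0.12, with an unadjusted p above 0.05. Of the Grpel1 exon bases, 11.65% are shared with Tada2b on the opposite strand. The remaining motor genes differed by less: Hspa9 by 0.08 ± 0.07, Timm44, which tethers mortalin to the channel, by -0.03 ± 0.07, and Dnajc19, the paralog of Dnajc15, by -0.05 ± 0.06.

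**Figure D3:**
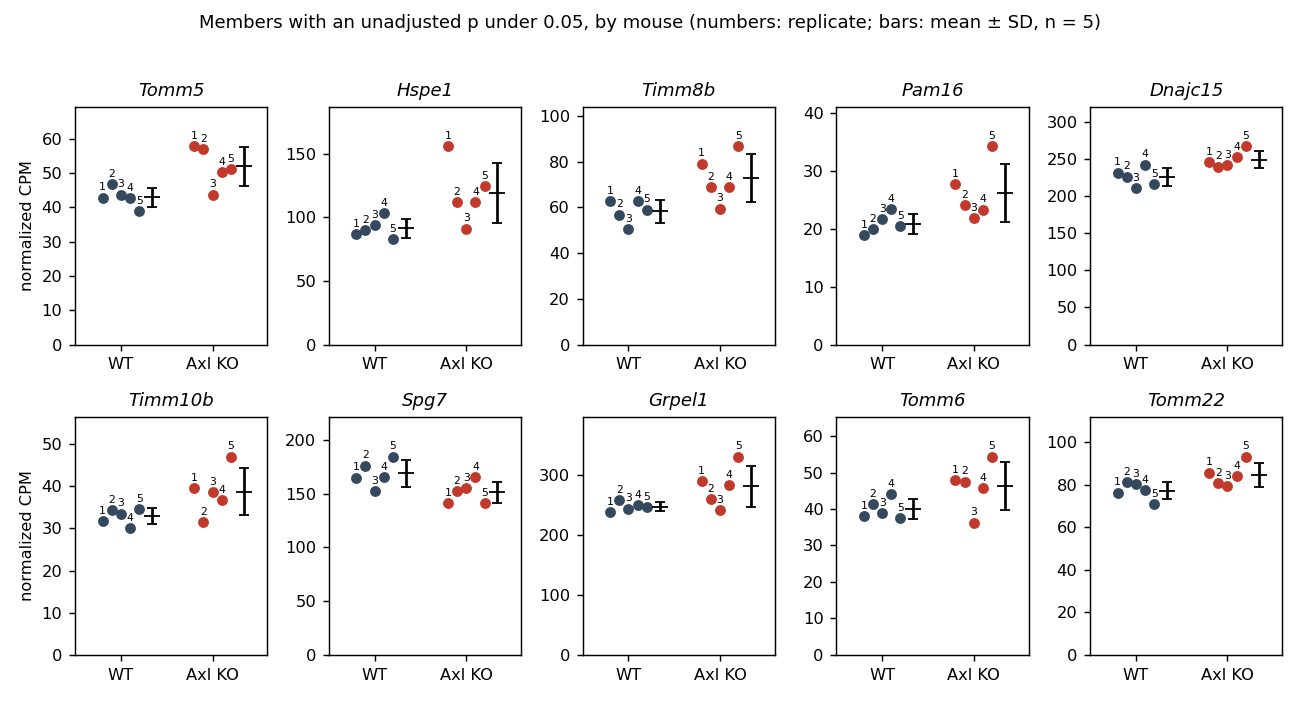
Normalized CPM of the 10 members with an unadjusted p under 0.05, with 1 panel per gene, 5 WT mice (blue-grey) and 5 Axl KO mice (red), the replicate number above each point, and bars for the mean and SD. In Tomm5, Hspe1, Timm8b, Grpel1 and Tomm6 Axl KO replicate 3 is the one Axl KO mouse within or below the WT range, and in each panel the genotypes overlap.

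In the matrix chaperonin, the co-chaperonin gene differed more than the chaperonin gene. Hspe1 had 156.1, 112.4, 91.3, 112.2 and 124.8 normalized CPM in Axl KO and 87.0, 89.9, 94.0, 103.3 and 82.8 in WT mice. Of the Axl KO mice, 4 lay above all WT mice, replicate 1 by far the most, and replicate 3 lay within the WT range. The log2 fold change of 0.38 ± 0.12 was the highest of any member in this fit (1.31-fold, 95% interval 0.13 to 0.64; edgeR adjusted p = 0.5714). Without Axl KO replicate 1 it was 0.27, below Pam16 (0.30) and Timm8b (0.28), and Pam16 was also the highest with the muscle covariate (0.38, against 0.30 for Hspe1) and without Axl KO mice 1 and 2 (0.33, against 0.26). Hspd1 had 885.7, 713.9, 709.8, 758.9 and 791.9 in Axl KO and 696.5, 736.1, 717.9, 784.8 and 739.3 in WT mice, a log2 fold change of 0.07 ± 0.07 (edgeR adjusted p = 0.7963). The 2 genes overlap over 112 bases on opposite strands, 7.60% of the Hspe1 and 4.24% of the Hspd1 exon bases, and the strand setting of the counts is not given in the sources used here.

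The processing peptidase and the proteases did not share a direction. Pmpcb had 283.3, 282.7, 283.9, 306.0 and 294.0 normalized CPM in Axl KO and 286.8, 281.4, 233.0, 274.4 and 299.4 in WT mice, where WT replicate 3 was the lowest of the 10 mice. Its log2 fold change was 0.08 ± 0.07 (edgeR adjusted p = 0.7729), or 0.02 without that mouse, and that of Pmpca, the substrate-binding subunit, was 0.01 ± 0.06. Spg7, paraplegin of the m-AAA protease, was the member lower in Axl KO mice with an unadjusted p under 0.05. It had 141.5, 152.1, 155.0, 165.2 and 141.5 in Axl KO and 164.9, 176.1, 152.5, 165.6 and 184.5 in WT mice. Of the Axl KO mice, 3 lay below all WT mice, and WT replicates 1 and 3 lay among the Axl KO mice. Its log2 fold change was -0.16 ± 0.07 (edgeR adjusted p = 0.5714), while that of Afg3l2 was 0.06 ± 0.07. The matrix proteases differed by 0.18 ± 0.11 for Clpx, the unfoldase, 0.13 ± 0.07 for Clpp, the peptidase that works with it, and -0.01 ± 0.07 for Lonp1, the LON protease.

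Tomm34 and Timmdc1 carry such a symbol without being translocase subunits, and Timmdc1 is an assembly factor of respiratory complex I. Tomm34 had 17.0, 19.4, 18.2, 20.96 and 15.6 normalized CPM in Axl KO and 16.7, 16.5, 18.5, 14.6 and 19.1 in WT mice, and the groups were interleaved. The log2 fold changes were 0.09 ± 0.10 for Tomm34 (edgeR adjusted p = 0.8114; 0.04 without Axl KO replicate 4, 0.05 without WT replicate 4 and 0.06 with the muscle covariate) and 0.06 ± 0.07 for Timmdc1.

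Ratios between 14 pairs of paralogs or partners were compared per mouse with two-sided exact permutation tests, in which the smallest possible p is 0.007937, and p-values were adjusted over the 14 pairs. None of the 14 had an adjusted p under 0.05. The Hspd1/Hspe1 ratio per length was lower in Axl KO mice, with log2 values of 0.86, 1.02, 1.31, 1.11 and 1.02 against 1.35, 1.39, 1.29, 1.28 and 1.51 in WT mice. Of the Axl KO mice, 4 lay below all WT mice, and the difference was -0.30 (exact permutation p = 0.02381, adjusted p = 0.2222). The Dnajc15/Dnajc19 ratio was higher in Axl KO mice, with log2 values of 0.31, 0.28, 0.34, 0.27 and 0.47 against 0.02, 0.17, 0.15, 0.34 and 0.03 in WT mice. Its difference was 0.19 (exact permutation p = 0.03175, adjusted p = 0.2222), and that of Afg3l2/Spg7 was 0.22 (exact permutation p = 0.06349, adjusted p = 0.2963). The other 11 pairs had an unadjusted p of 0.1111 or more.

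**Figure D4:**
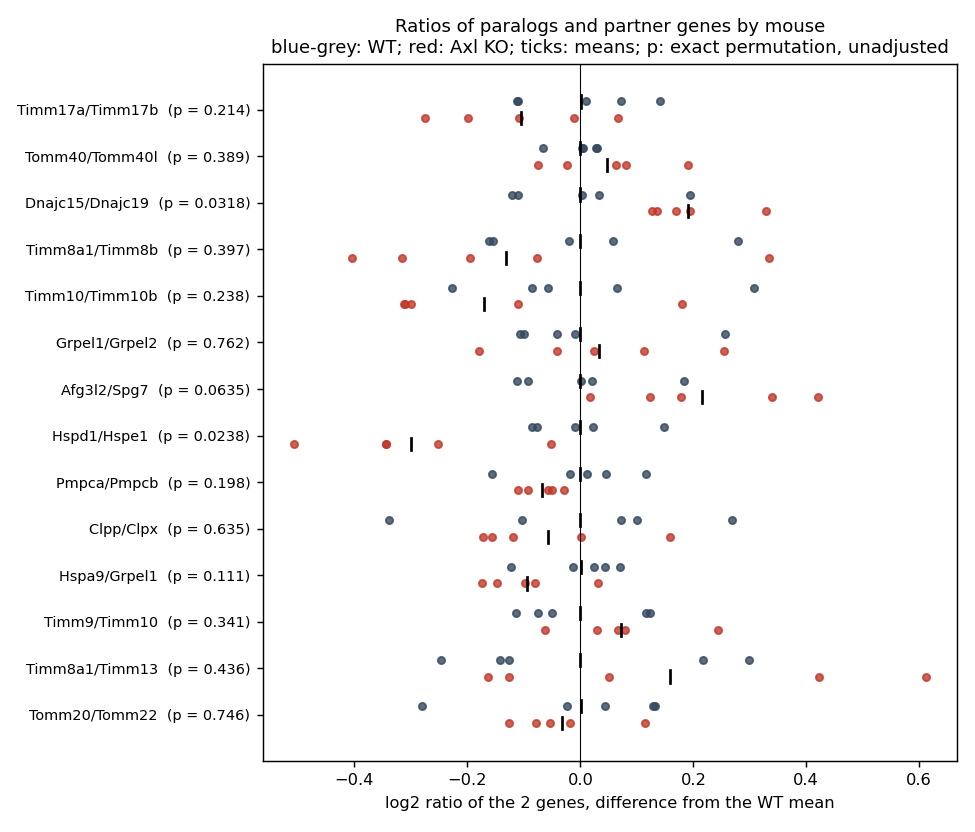
Log2 ratio of 2 genes in each mouse, as the difference from the WT mean, for 14 pairs (WT in blue-grey, Axl KO in red, ticks for the means, unadjusted exact permutation p beside the names). Hspd1/Hspe1 has 4 Axl KO mice left of all WT mice, and the genotypes overlap in every pair.

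Partner genes were also compared for covariation over the 10 mice, on the log2 scale and over the same 14 pairs. Hspd1 and Hspe1 had a Pearson r of 0.84 (permutation p = 0.00448, adjusted p = 0.02091) and a Spearman rho of 0.61 (permutation p = 0.06641, adjusted p = 0.1859), but r was 0.37 without the 2 mice farthest from the Hspd1 median, so the relation rested on those mice. Tomm40 and Tomm40l had an r of 0.83 (permutation p = 0.00351, adjusted p = 0.02091) and a rho of 0.77 (permutation p = 0.01226, adjusted p = 0.08582), with r at 0.64 without the 2 farthest mice. Hspa9 and Grpel1 had an r of 0.82 (permutation p = 0.00243, adjusted p = 0.02091) and a rho of 0.71 (permutation p = 0.02676, adjusted p = 0.1249), with r at 0.70 without them. These 3 were the pairs with an adjusted p under 0.05 for r, none had one for rho, and none of the 14 had one for r without Axl KO replicate 5. Centred on the genotype means, the same 3 pairs had r between 0.79 and 0.88. Over all 703 pairs of members the median r was 0.31, and 0.23 after centring.

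The mice of each genotype were not alike in the members' levels. Averaged over the 38 members as mean log2 CPM centred on the 10 mice, the level was 0.09, 0.06, -0.08, 0.06 and 0.13 in Axl KO mice 1 to 5 and -0.06, -0.01, -0.08, -0.03 and -0.09 in WT mice. Of the Axl KO mice, 4 lay above all WT mice and Axl KO replicate 3 lay with the lowest. Axl KO replicate 5 was the highest of the 10 mice for 14 members and Axl KO replicate 1 for 8, while WT replicate 3 was the lowest for 10 and Axl KO replicate 3 and WT replicate 5 for 8 each. The summed level of the members was 5723 to 6620 normalized CPM in Axl KO mice, with a median of 6264. In WT mice it was 5543 to 6014, with a median of 5857.

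Other nuclear genes of mitochondria gave like values. Over all genes tested, 49.8% had a log2 fold change above 0 and 8.4% an unadjusted p under 0.05. Of 37 complex I subunit genes, 33 had a log2 fold change above 0, with a median of 0.09, and 7 had an unadjusted p under 0.05. Of 78 mitochondrial ribosomal protein genes, 71 had a log2 fold change above 0, with a median of 0.11, and 15 had an unadjusted p under 0.05. In both lists Axl KO replicate 3 lay at the level of the lowest WT mice, as it did for the members. These lists share their mice with the members, and no test was made of a difference between them.

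**Figure D5:**
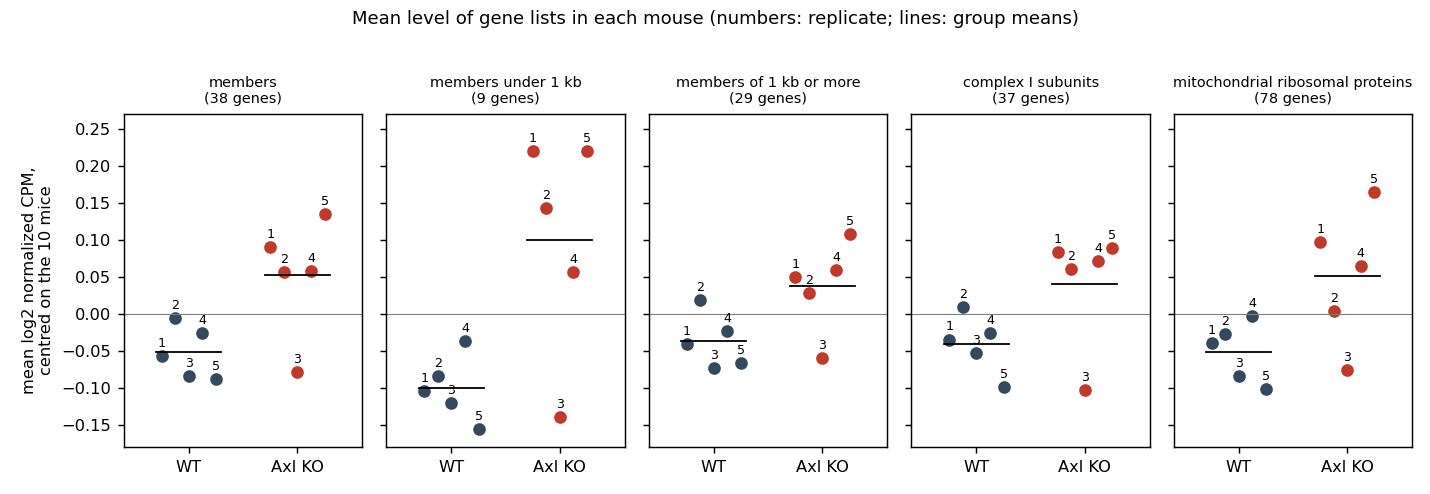
Mean log2 normalized CPM of each list, centred on the 10 mice, in 5 WT (blue-grey) and 5 Axl KO mice (red), with replicate numbers and lines for group means. In all 5 panels Axl KO replicate 3 lies at or near the low end of the WT mice and the other Axl KO mice lie higher, with the widest gap among members under 1 kb.

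Members with short transcripts had a higher median log2 fold change than longer members, but were not alike. The 9 members under 1 kb had a median of 0.21, and 5 of them had an unadjusted p under 0.05: Hspe1, Timm8b, Pam16, Tomm5 and Tomm6. The other members under 1 kb were Timm23 (0.14), Clpp (0.13), Timm10 (0.05) and Timm13 (0.02). All protein-coding genes of that length showed the same direction to a lesser degree: 829 genes had a median of 0.06, 67.8% were above 0, and 11.3% had an unadjusted p under 0.05. Between 1 and 2 kb the medians were 0.10 for 12 members and 0.02 for 2829 genes, between 2 and 4 kb 0.08 for 14 members and -0.00095 for 5207 genes, and above 4 kb 0.10 for 3 members and -0.03 for 3208 genes. Across genes, the Spearman correlation of length with log2 fold change was -0.38 for the 38 members and -0.16 for 12073 protein-coding genes, where the points share the same 10 libraries and are not independent. The part of transcript length in the members' values was not tested.

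The cell types in the depots also varied. The sums of markers given here are of CPM scaled to library totals, without the normalization used in the fit. The 11 brown adipocyte markers, all detected, summed to 10990 to 13130 CPM in Axl KO and 9095 to 10710 in WT mice. These ranges did not overlap on that scale. With the normalization of the fit, Axl KO replicate 3 lay below WT replicates 2 and 4, so the ranges overlapped. Ucp1 carried most of the difference between genotypes, with 5561 ± 1197 against 4119 ± 863.2 normalized CPM (SD, n = 5 each), and its own ranges overlapped. The median log2 fold change of the 11 markers was 0.04, with Cidea at 0.01, Ppargc1a at 0.02, Ebf2 at -0.09 and Plin1 at -0.10, and Dio2 and Cox8b were the markers without overlap. Their part in the members' values was not tested. The 10 skeletal muscle markers, all detected, summed to 24.6 and 6.17 CPM in Axl KO mice 1 and 2, to between 607.6 and 3249 in the remaining 3 Axl KO and to 823.7 to 4097 in WT mice. Without Axl KO mice 1 and 2, the median log2 fold change of the members was 0.08, 31 were above 0 and 5 had an unadjusted p under 0.05 (812 of 13766 genes tested). With the muscle markers as a covariate the median was 0.07 and 7 had an unadjusted p under 0.05 (930 of 13739 genes tested). The 4 fibroblast markers summed to 324.8 to 595.6 CPM in Axl KO and 478.3 to 677.6 in WT mice. All 4 had a log2 fold change below 0 (median -0.32, from -0.43 to -0.21), 1 of them, Col1a1, with an unadjusted p under 0.05, and their part in the members' values was not tested. The sums were 108.8 to 214.4 and 119.6 to 198.5 for the 6 macrophage markers, and at most 1.67 in any mouse for the 4 lymphocyte markers. Of 7 white adipocyte markers 2 were at 0, and the sums were 204.2 to 671.1 in Axl KO and 275.7 to 576.2 in WT mice.

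Genes that work beside the members were read from the same fit, where 49.8% of all genes were above 0. An unadjusted p under 0.05 was found for 8.4% of all genes. Of 13 further import genes, 11 had a log2 fold change above 0 and 2 had an unadjusted p under 0.05: Mtx1, an outer membrane metaxin, with 0.13 ± 0.06 (edgeR adjusted p = 0.5714), and Dnaja3, a J-protein partner of mortalin, with 0.19 ± 0.09 (edgeR adjusted p = 0.588). Of 12 further proteases and scaffolds, 6 were above 0 and 2 had an unadjusted p under 0.05: Immp1l, an inner membrane peptidase, with 0.25 ± 0.09 (edgeR adjusted p = 0.5714), and Stoml2, a membrane scaffold, with 0.17 ± 0.07 (edgeR adjusted p = 0.5714). Among 9 mitophagy genes, 7 were above 0, and the receptors Bnip3 and Bnip3l differed by 0.30 ± 0.10 (edgeR adjusted p = 0.5714) and 0.17 ± 0.06 (edgeR adjusted p = 0.5714). The mitochondrial stress response, through which cells raise chaperones and proteases when import or folding is disturbed, was read from 7 genes. The 5 that passed the filter were Atf4, Atf5, Asns, Ddit3 and Trib3, none of them a chaperone or protease. Of these 1 was above 0, the median was -0.03 (from -0.33 to 0.15), and 0 had an unadjusted p under 0.05 in edgeR. None of these genes had an adjusted p under 0.05.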

How the data were processed

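RNA of iBAT was sequenced from 5 Axl KO and 5 WT mice on HFD. The authors deposited 1 table of raw counts per mouse, as reads per Ensembl gene without normalization. The submitters' processing notes name bcl2fastq, Trimmomatic 0.36, STAR 2.6.1c, DESeq2 and GRCm38.p5, whereas the paper names other trimming and mapping tools and rRNA depletion in place of the polyadenylated RNA of the labels. The counting tool, strand setting and annotation release are not given in the sources used here, so counts of overlapping genes are uncertain. Gene names and lengths came from GENCODE M21, and promoter windows from RefSeq.

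Counts were normalized with TMM and compared in R 4.3.3 with the quasi-likelihood test of edgeR 4.0.16, without covariates, over genes with a mean above 1 CPM, and p-values were adjusted after Benjamini and Hochberg over all of them. DESeq2 1.42.0 was an alternative, with RLE size factors, other filters, a robust fit, protein-coding genes alone, a muscle covariate, a replicate block and each mouse left out. Ratios of gene pairs used log2(CPM + 0.1) per kilobase. Correlations used 100000 permutations. The procedures were tested on simulated data. The tables of any 2 mice differed beyond sampling noise, so none was a copy of another. That each table stands for 1 separate mouse was taken from the labels.

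The members and gene lists were chosen with earlier results of these data known. Values per mouse are given for members with an unadjusted p under 0.05 and for the smallest p in each role, levels for the 3 highest, the 3 lowest and paired genes, and related genes only at an unadjusted p under 0.05. Hspd1 is given per mouse beyond this rule, as the partner of Hspe1, and the stress response genes are named beyond it.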

Additional observations from a re-analysis of the deposited data

Results flagged for a closer look

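Each member was checked in each genotype for a mouse that stood apart, as a gap to the nearest mouse above 0.71 of the range of the 5 mice. Of 76 such groups 1 met it, where chance gives about 1 in 20, or 3.8. Timm17b, the X-linked TIM23 channel subunit, had 15.3 normalized CPM in Axl KO replicate 2 and 17.9 to 18.4 in the other Axl KO mice, a gap of 0.825 of the range. The WT mice ranged from 14.9 to 18.02 and thus spanned this value.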

How the results depend on the processing

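With DESeq2 9 genes had an adjusted p under 0.05, and the other settings gave Axl alone; no member passed in any of them. Members with an unadjusted p under 0.05 numbered 10, but 6 with the replicate number as a block, 5 in the 8 mice without Axl KO replicates 1 and 2 (a setting chosen after seeing the data), and 4 to 12 with 1 mouse left out. Replicate numbers gave no sign of pairing: the correlations of same-numbered mice ran from -0.36 to 0.37, and 1 of 5 Axl KO mice correlated best with its own number. With so few mice this cannot exclude a pairing. Members without overlap between genotypes numbered 0, but 1 with no filter (Dnajc15), 1 in the 8 mice (Timm10b) and 0 to 5 with 1 mouse left out, with 5 (Grpel1, Hspe1, Timm8b, Tomm5 and Tomm6) without Axl KO replicate 3, where 774 genes did. Pairs with correlated levels numbered 3, and 0 to 3 with 1 mouse left out. Of 722 member values over 19 settings, 23 changed sign, in 8 members whose main value lay near 0; the cause was not tested. With the muscle covariate and in the 8 mice these were Lonp1 (0.01687 and 0.02989), Timm13 (-0.08699 and -0.08624) and Tomm40l (-0.02725 and -0.02325). With 1 mouse left out, Lonp1 ran from -0.05998 to 0.01215, Pmpca from -0.03429 to 0.04036, Timm10 from -0.002883 to 0.1166, Timm13 from -0.02122 to 0.06799, Timm17a from -0.005071 to 0.05835, Timm44 from -0.05914 to 0.01665, Timm50 from -0.0366 to 0.05229 and Tomm40l from -0.005581 to 0.06107. Timm8a1, the least abundant member, had an SE of 0.19, against a median of 0.07, and a biological coefficient of variation of 17.1%, against a median of 9.60% over the members.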

Other observations

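Protein-coding genes of the mitochondrial genome are translated inside the organelle, so that their products need no import. Of 12 tested, 8 had a log2 fold change above 0 (49.8% of all genes), with a median of 0.02 and a range from -0.52 to 0.87. Beside 8.4% of all genes, 0 of them had an unadjusted p under 0.05 in edgeR. Their mean log2 CPM, centred on the 10 mice, was 0.19, -0.37, -0.62, 0.41 and 0.59 in Axl KO mice and -1.01, 0.32, 0.33, 0.05 and 0.11 in WT mice. The spread between mice of one genotype was 0.52 in Axl KO and 0.56 in WT mice (SD), beside 0.08 and 0.04 for the 38 members. Axl KO replicate 2, high for the members, was low here, and WT replicate 1 was the lowest of the 10 mice.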
